A study of Homo sapiens with 9 samples.

Results

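The genes described here are 9 nuclear receptor coregulators, NCOA1, NCOA2, NCOA3, NCOA4, NCOR1, EP300, CREBBP, KDM1A and MED1, taken by symbol from the 25142 gene entries of the table. They were measured by sequencing of polyadenylated RNA from LNCaP, a human prostate cancer cell line that responds to androgen. There were 3 groups of 3 biological replicates. One was treated with 1 nM R1881, a synthetic androgen, and 10 µM the compound MEL-6 (a code name; its structure is not given), the second with 1 nM R1881 alone and the third with DMSO (vehicle). Before the 18 h of treatment the cells of every group spent 24 h in medium whose 5% serum had been stripped of steroids with charcoal. All groups were thus steroid-starved before treatment, and the vehicle cells then received no R1881. All cells came from 1 line. The study asked for the target of MEL-6 in these cells.

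A steroid receptor bound to its hormone regulates transcription by recruiting coregulators. Coactivators of the p160 family (NCOA1, NCOA2 and NCOA3) bind the receptor through short leucine-rich motifs and bring in the acetyltransferases EP300 (p300) and CREBBP (CBP), which acetylate histones, while the Mediator complex, contacted through MED1, links the receptor to RNA polymerase II. Corepressors such as NCOR1 carry a histone deacetylase to receptors without hormone or with an antagonist, and KDM1A (LSD1) removes methyl groups from histone H3 and takes part in both activation and repression by steroid receptors. NCOA4 (ARA70) was described as a steroid receptor coactivator and is also the cargo receptor that delivers ferritin to autophagy.

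Levels are RPKM, read numbers scaled by gene length and library size, so that levels of different genes can be compared per length. Estimated depths, rounded, ran from 6100000 to 11000000 reads per library in R1881+MEL-6, from 12000000 to 17200000 reads in R1881 and from 6600000 to 10200000 reads in vehicle, so the R1881 libraries were the deepest. At these depths each coregulator rested on an estimated 306 to 7841 reads per library, a counting error of 1.13% to 5.72% of the value. Of the androgen-induced genes that check the treatment, KLK3 averaged 619 ± 7.46 RPKM in R1881+MEL-6, 2220 ± 59.3 RPKM in R1881 and 308 ± 32.9 RPKM in vehicle, and FKBP5 7.99 ± 0.212 RPKM in R1881+MEL-6, 212 ± 1.35 RPKM in R1881 and 9.53 ± 0.315 RPKM in vehicle (SD, n = 3 each). The luminal keratins KRT8 and KRT18 were at 75.7 RPKM or more in every library, and both were highest in R1881. KRT8 averaged 87.4 RPKM in R1881+MEL-6, 495 RPKM in R1881 and 87.8 RPKM in vehicle, and KRT18 115, 419 and 112 RPKM in the same groups. Of 16 markers of basal, stromal, leukocyte and endothelial cells 8, among them KRT5, TP63, PTPRC, CD3E, PECAM1 and CDH5, were listed at 0 in every library. The 16 summed to 4.16 to 5.06 RPKM in R1881+MEL-6, 2.91 to 3.19 RPKM in R1881 and 3.65 to 4.53 RPKM in vehicle, mostly COL1A1 (stroma, 2.05 to 3.45 RPKM over all libraries) and VWF (endothelium, 0.388 to 1.22 RPKM), and the part of this in the results was not tested.

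All 9 coregulators were expressed in all 9 libraries, between 5.59 and 75.7 RPKM, and all passed the filter on low values. NCOA4 (chromosome 10, 51565108 to 51590734, GRCh37) was the most abundant in each group and NCOA3 (chromosome 20, 46130601 to 46285621) the least. NCOA4 averaged 67.8 ± 2.60 RPKM in R1881+MEL-6, 74.0 ± 2.17 RPKM in R1881 and 64.2 ± 2.26 RPKM in vehicle (SD, n = 3 each). KDM1A (chromosome 1, 23345941 to 23410184) and NCOR1 (chromosome 17, 15933408 to 16118874) came next in each group, in that order. CREBBP (chromosome 16, 3775055 to 3930121) was next to last and NCOA1 (chromosome 2, 24807346 to 24993571) stood just above it in each group. Between them lay NCOA2 (chromosome 8, 71024267 to 71316020), EP300 (chromosome 22, 41488614 to 41576081) and MED1 (chromosome 17, 37560538 to 37607527), whose order changed with the treatment. The neighbours in the order whose libraries overlapped were EP300 and NCOA2 in R1881+MEL-6, EP300 and MED1 in R1881, and, in vehicle, MED1 with NCOA2 and NCOA2 with EP300.

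**Figure D1:**
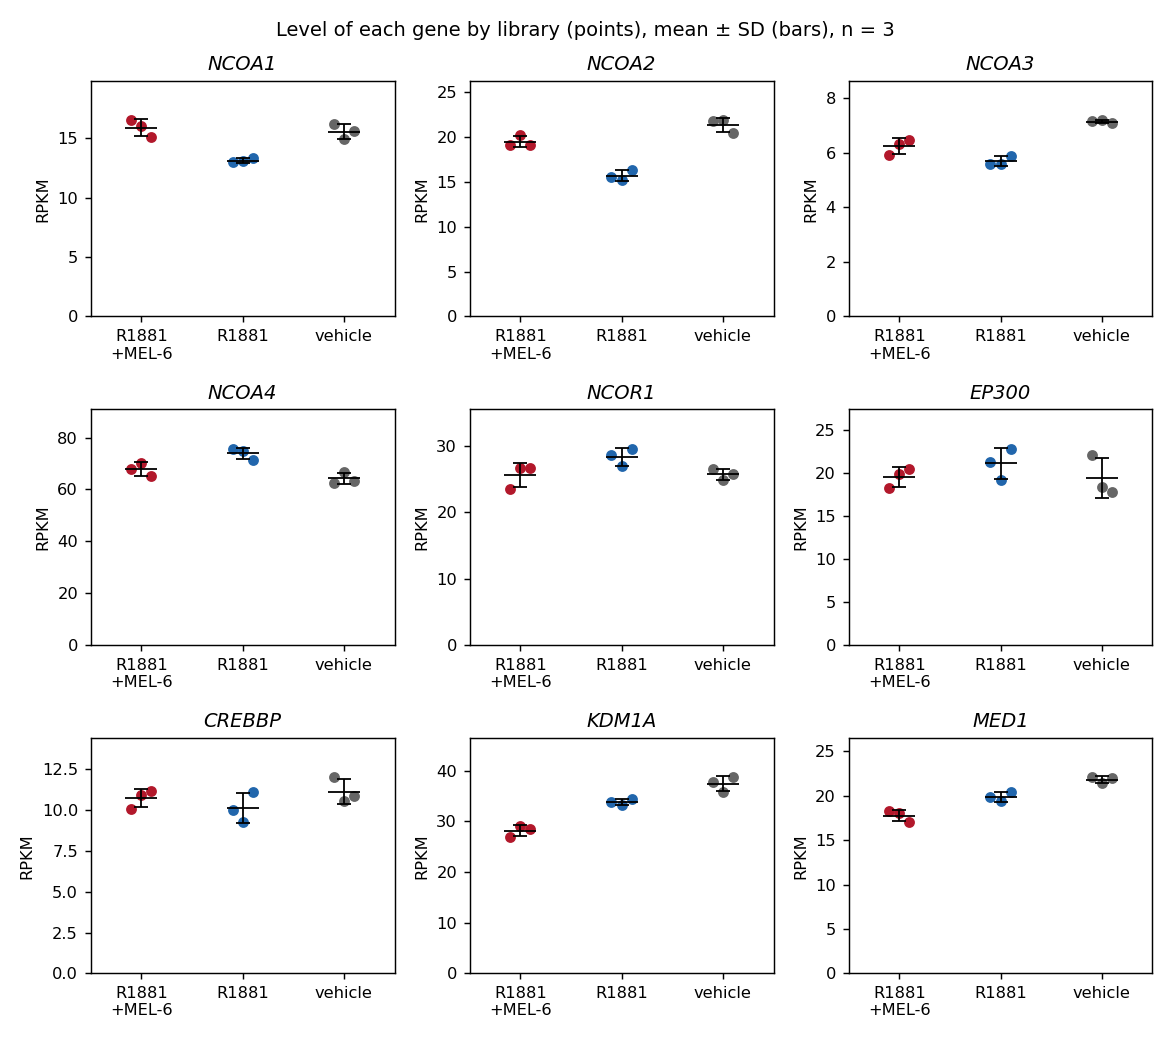
RPKM of the 9 coregulators (panels, each with its own axis from 0) in the 3 libraries of each group, with the mean and SD as bars. NCOA1, NCOA2 and NCOA3 were lowest in R1881, NCOA4 was highest there, and KDM1A and MED1 were lowest in R1881+MEL-6.

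The effect of androgen alone was read from R1881 against vehicle. With R1881 the 3 p160 coactivators fell by 15.6% (NCOA1), 26.5% (NCOA2) and 20.3% (NCOA3), and NCOA4 rose by 15.1%. KDM1A fell by 9.68%, a call lost under 9 of 18 alternative settings. NCOR1, EP300, CREBBP and MED1 did not pass the test. In all, 1 of 9 was called higher and 4 were called lower, where 45.8% of the 13295 genes tested were called in either direction, 14.5% higher and 31.3% lower (limma adjusted p under 0.05), so the share of coregulators called was near that of all genes. None of the changes reached 1.5-fold. RPKM from whole cultures cannot tell less RNA per cell from fewer cells that hold it.

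NCOA2 (TIF2, GRIP1) had 15.6, 15.2 and 16.4 RPKM in R1881 and 21.8, 21.9 and 20.5 RPKM in vehicle. The highest R1881 library lay well under the lowest vehicle library, and the log2 change was -0.43 ± 0.054 (SE; limma adjusted p = 0.000107), the largest among the 9. Of all tested genes 16.0% had a lower log2 change. NCOA3 (SRC-3, AIB1), known as a gene amplified in breast cancer, had 5.60, 5.59 and 5.90 RPKM in R1881 and 7.16, 7.20 and 7.09 RPKM in vehicle. These groups did not overlap either, with a log2 change of -0.30 ± 0.063 (adjusted p = 0.00289 in limma). NCOA1 (SRC-1) had 13.0, 13.1 and 13.4 RPKM in R1881 and 16.2, 14.9 and 15.6 RPKM in vehicle, again without overlap. Its log2 change was -0.24 ± 0.056 (adjusted p = 0.00594 in limma). The summed level of the 3 genes was 34.2, 33.9 and 35.6 RPKM in R1881, against 45.1, 44.0 and 43.1 RPKM in vehicle.

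NCOA4 had 75.7, 74.7 and 71.5 RPKM in R1881 and 62.6, 66.8 and 63.3 RPKM in vehicle, so that each R1881 library was above each vehicle library. The log2 change was 0.20 ± 0.050 (limma adjusted p = 0.00754), and 83.1% of all tested genes had a lower one. KDM1A had 33.9, 33.2 and 34.4 RPKM in R1881 and 37.8, 35.8 and 38.7 RPKM in vehicle. Its groups did not overlap, but the log2 change of -0.14 ± 0.051 lay close to the threshold (adjusted p = 0.041 in limma). MED1, at 19.8, 19.3 and 20.4 RPKM in R1881 and 22.1, 21.4 and 22.0 RPKM in vehicle, lay on the other side of it (log2 change -0.13 ± 0.051, limma adjusted p = 0.0548).

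NCOR1 had 28.5, 26.9 and 29.6 RPKM in R1881 and 26.5, 24.8 and 25.7 RPKM in vehicle, groups that were close but did not overlap. Its log2 change of 0.14 ± 0.064 did not pass (limma adjusted p = 0.102, 95% interval -0.0034 to 0.28). Of the acetyltransferases, EP300 had 21.3, 19.2 and 22.8 RPKM in R1881 and 22.1, 18.4 and 17.8 RPKM in vehicle, and CREBBP 10.0, 9.27 and 11.1 RPKM in R1881 and 12.0, 10.5 and 10.9 RPKM in vehicle. Both pairs of groups overlapped. The 95% intervals of the log2 changes, -0.083 to 0.32 for EP300 and -0.31 to 0.046 for CREBBP, held no change as well as moderate ones. Groups that did not overlap were found for 7 of the 9 genes and for 57.9% of all tested genes.

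The scale matters for these small changes, because the median of all tested genes was itself at -0.12 in this comparison. Relative to that median the log2 changes were -0.31 for NCOA2, -0.18 for NCOA3, -0.12 for NCOA1, 0.32 for NCOA4, 0.26 for NCOR1 and 0.24 for EP300, while those of KDM1A (-0.024), MED1 (-0.012) and CREBBP (-0.011) were close to it. With median-of-ratios scaling, which brought the median to -0.0095, NCOA2, NCOA3 and NCOA4 kept their calls, NCOR1 was called higher (log2 change 0.26, limma adjusted p = 0.00752), and NCOA1 and KDM1A were no longer called (adjusted p = 0.13 and 0.737). Under that scaling 47.7% of all calls were lower, in place of 68.3%. It called 2 coregulators higher and 2 lower, where 2778 of 13296 tested genes were called higher and 2535 lower. With upper-quartile scaling NCOR1 was also called higher (limma adjusted p = 0.032) and KDM1A was not called (0.139). That made 2 higher and 3 lower, where 2198 of 13302 tested genes were called higher and 3399 lower, so that 60.7% of all calls were lower.

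The RefSeq promoter table (GRCh38.p14, 250 bases before to 50 after the start of each gene) held 8 of the 9 genes, all but NCOA2. The sequences of the 2 other p160 genes are shown because these fell together with R1881, with that of NCOA4, which rose, and those of KDM1A and MED1, the pair that was lowest with MEL-6. They read 5′ to 3′ on the strand of the gene, with matches on either strand in capitals to AGAACA (the half-site of the androgen response element), GGGCGG (GC box), to CCAAT (the CCAAT box), and to TTCCCGC or its variant TTGGCGC, cores of E2F-type sites.
NCOA1, plus strand, chr2:24491004-24491303: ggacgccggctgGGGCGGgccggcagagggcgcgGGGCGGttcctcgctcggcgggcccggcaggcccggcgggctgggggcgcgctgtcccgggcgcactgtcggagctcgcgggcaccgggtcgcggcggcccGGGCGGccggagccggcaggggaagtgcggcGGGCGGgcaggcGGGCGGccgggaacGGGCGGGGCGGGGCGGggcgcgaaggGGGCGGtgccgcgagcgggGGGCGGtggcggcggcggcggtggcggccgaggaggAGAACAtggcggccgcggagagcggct
NCOA3, plus strand, chr20:47501637-47501936: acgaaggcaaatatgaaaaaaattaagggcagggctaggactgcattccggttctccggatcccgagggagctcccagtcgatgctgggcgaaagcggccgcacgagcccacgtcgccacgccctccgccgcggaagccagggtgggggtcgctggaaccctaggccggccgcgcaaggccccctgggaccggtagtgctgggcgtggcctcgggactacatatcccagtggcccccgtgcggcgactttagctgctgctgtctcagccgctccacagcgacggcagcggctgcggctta
NCOA4, minus strand, chr10:46030574-46030873: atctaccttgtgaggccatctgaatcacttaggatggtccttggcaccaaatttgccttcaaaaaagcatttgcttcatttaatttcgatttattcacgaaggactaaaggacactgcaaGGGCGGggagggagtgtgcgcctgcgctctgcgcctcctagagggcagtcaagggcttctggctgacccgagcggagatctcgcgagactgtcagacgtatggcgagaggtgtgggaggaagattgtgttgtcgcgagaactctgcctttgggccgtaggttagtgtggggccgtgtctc
KDM1A, plus strand, chr1:23019218-23019517: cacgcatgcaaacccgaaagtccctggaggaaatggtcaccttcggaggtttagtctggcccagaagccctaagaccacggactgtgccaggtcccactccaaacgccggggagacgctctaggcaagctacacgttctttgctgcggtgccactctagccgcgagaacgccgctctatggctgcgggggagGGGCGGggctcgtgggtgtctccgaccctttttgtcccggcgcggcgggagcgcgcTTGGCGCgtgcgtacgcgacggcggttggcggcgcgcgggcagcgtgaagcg
MED1, minus strand, chr17:39451214-39451513: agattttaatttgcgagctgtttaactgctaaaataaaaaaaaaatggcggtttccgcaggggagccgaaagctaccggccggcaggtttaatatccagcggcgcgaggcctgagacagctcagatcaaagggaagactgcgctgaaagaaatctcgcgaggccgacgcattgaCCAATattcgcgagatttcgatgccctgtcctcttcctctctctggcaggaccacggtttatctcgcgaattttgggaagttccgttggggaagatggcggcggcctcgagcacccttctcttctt
The windows of NCOA1 and NCOA3 had none of these motifs in common, and neither had those of KDM1A and MED1. Among the windows shown a GC box stood in those of NCOA1, NCOA4 and KDM1A. Of the windows not shown, that of CREBBP, which was called in no comparison, held 3 GC boxes. The NCOA1 window was 85.7% G or C, beside a median of 58.3% over all promoters. NCOA1 held 10 GC boxes, some of which overlap, and 1 half-site, 24 bases after the start, whereas the NCOA3 window held no match at all. The half-site stood in 14.9% of the 27305 promoters in the table and a GC box in 44.6%. NCOA4 held 1 GC box. KDM1A held 1 GC box and 1 TTGGCGC, a core found in 3.12% of promoters, and MED1 held 1 CCAAT, found in 35.7%. No window of the 8 genes held the full element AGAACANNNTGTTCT. A match is a description of the letters and was not tested for binding.

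The effect of MEL-6 in cells under androgen was read from R1881+MEL-6 against R1881. NCOA1 and NCOA2 rose by 21.0% and 24.0% with MEL-6, while KDM1A fell by 16.7% and MED1 fell by 10.7%. NCOA3, NCOA4, NCOR1, EP300 and CREBBP did not pass the test. The count was 2 of 9 higher and 2 lower, where 52% of all tested genes were called, 31.4% higher and 20.6% lower. This comparison and the first share the R1881 libraries, so opposite directions in the 2 are in part the same measurement.

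NCOA1 had 16.5, 16.0 and 15.1 RPKM in R1881+MEL-6 and 13.0, 13.1 and 13.4 RPKM in R1881, and NCOA2 had 19.1, 20.2 and 19.2 RPKM in R1881+MEL-6 and 15.6, 15.2 and 16.4 RPKM in R1881. For both genes each MEL-6 library was above each R1881 library. The log2 changes were 0.26 ± 0.056 for NCOA1 (limma adjusted p = 0.00258) and 0.30 ± 0.054 for NCOA2 (limma adjusted p = 0.000934). NCOA3 had 5.93, 6.34 and 6.47 RPKM in R1881+MEL-6 and 5.60, 5.59 and 5.90 RPKM in R1881, with a narrow gap between the groups. Its log2 change of 0.12 ± 0.063 was not called (limma adjusted p = 0.13, 95% interval -0.019 to 0.26).

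KDM1A had 26.9, 29.1 and 28.5 RPKM in R1881+MEL-6 and 33.9, 33.2 and 34.4 RPKM in R1881. The groups were far apart relative to their spread, with a log2 change of -0.26 ± 0.051 (limma adjusted p = 0.00168). MED1 had 18.2, 18.0 and 17.0 RPKM in R1881+MEL-6 and 19.8, 19.3 and 20.4 RPKM in R1881, closer but without overlap. Its log2 change was -0.16 ± 0.051 (limma adjusted p = 0.0228). The call of MED1 was lost without R1881 replicate 1 (adjusted p = 0.0596), R1881 replicate 3 (0.0846) or R1881+MEL-6 replicate 3 (0.0741).

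NCOA4 had 68.0, 70.3 and 65.1 RPKM in R1881+MEL-6 and 75.7, 74.7 and 71.5 RPKM in R1881, and NCOR1 had 23.5, 26.7 and 26.7 RPKM in R1881+MEL-6 and 28.5, 26.9 and 29.6 RPKM in R1881. In both genes each MEL-6 library was below each R1881 library, and neither passed on the scale of the deposited values (log2 change -0.12 ± 0.050 with limma adjusted p = 0.0576 for NCOA4, and -0.14 ± 0.064 with 0.0809 for NCOR1). Without R1881+MEL-6 replicate 1, the lowest library of NCOR1, its log2 change was -0.084 (limma adjusted p = 0.242). With median-of-ratios scaling both were called lower (limma adjusted p = 0.00365 for NCOA4 and 0.00752 for NCOR1), which made 4 of 9 lower and 2 higher. Upper-quartile scaling gave the same counts and also called both lower (limma adjusted p = 0.0348 for NCOA4 and 0.0392 for NCOR1). The median of all tested genes was at 0.075 on the deposited scale, 0.053 with upper-quartile and -0.017 with median-of-ratios scaling. Of all calls 39.6%, 42.8% and 53.7% were lower, in that order. With upper-quartile scaling 3946 of 13302 tested genes were called higher and 2952 lower. With median-of-ratios scaling 3265 of 13296 tested genes were called higher and 3785 lower. EP300 had 18.2, 19.9 and 20.5 RPKM in R1881+MEL-6 against 21.3, 19.2 and 22.8 RPKM in R1881, and its 95% interval was -0.31 to 0.094. CREBBP had 10.1, 10.9 and 11.2 RPKM in R1881+MEL-6 against 10.0, 9.27 and 11.1 RPKM in R1881, with an interval of -0.097 to 0.26. The groups overlapped in both acetyltransferases. Groups without overlap were found for 7 of the 9 genes and for 59.8% of all tested genes.

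R1881+MEL-6 against vehicle showed which levels with both agents differed from those of cells without added androgen. No group received MEL-6 without R1881, so an effect of MEL-6 alone was not measured. KDM1A fell by 24.8% and MED1 by 18.6%, the changes in this comparison that held under each of the 18 alternatives. In KDM1A the highest MEL-6 library, at 29.1 RPKM, lay under the lowest vehicle library, at 35.8 RPKM, with a log2 change of -0.40 ± 0.051 (limma adjusted p = 0.000183) and 9.32% of all tested genes below it. In MED1 the highest MEL-6 library was at 18.2 RPKM and the lowest vehicle library at 21.4 RPKM, with a log2 change of -0.29 ± 0.051 (limma adjusted p = 0.00141). NCOA3 was also called lower (log2 change -0.18 ± 0.063, limma adjusted p = 0.044), but 14 of the 18 alternatives, among them leaving out any 1 of the 9 libraries, did not keep that call. The count was 0 of 9 higher and 3 lower, where 38% of all tested genes were called, 17.2% higher and 20.8% lower.

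For the other genes the interval of the difference from vehicle was as follows. NCOA1 differed by 0.028 on the log2 scale (95% interval -0.096 to 0.15) and NCOA2 by -0.13 (-0.25 to -0.0090, limma adjusted p = 0.0849). NCOA4 differed by 0.077 (-0.034 to 0.19), NCOR1 by -0.0063 (-0.15 to 0.13), EP300 by 0.012 (-0.19 to 0.21) and CREBBP by -0.050 (-0.23 to 0.13). These intervals bound the difference and do not show that the levels were equal. Groups without overlap were found for 4 of the 9 genes, NCOA2, NCOA3, KDM1A and MED1, and for 46.5% of all tested genes.

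**Figure D2:**
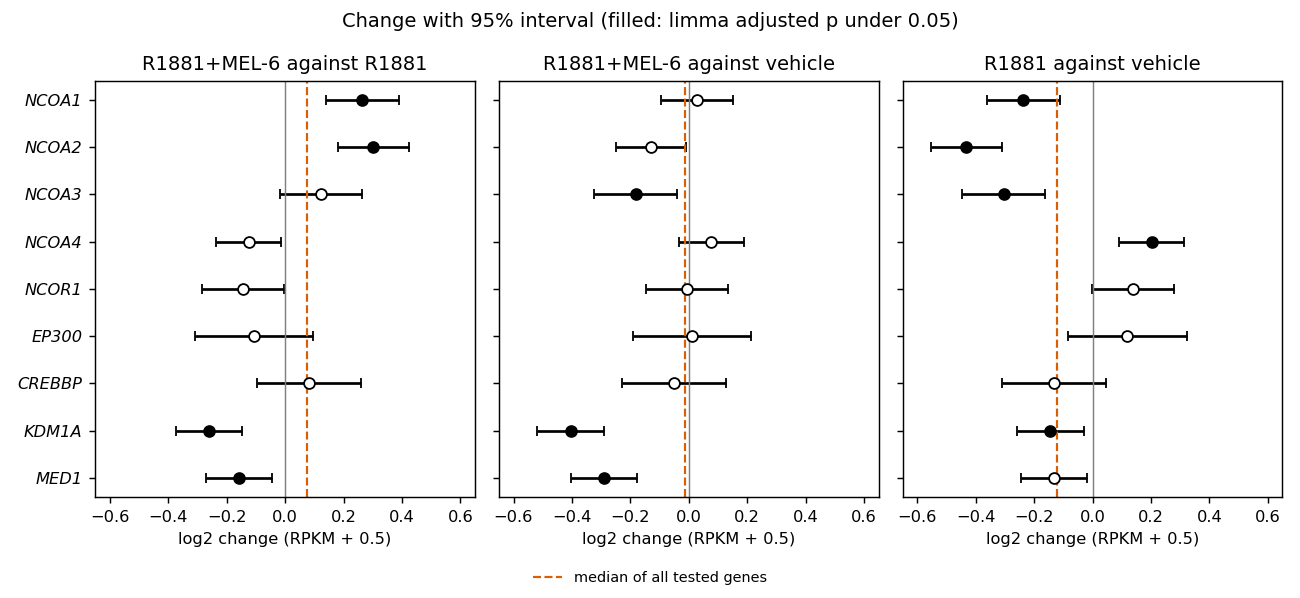
Log2 change of each coregulator with its 95% interval in the 3 comparisons, on the log2(RPKM + 0.5) scale; filled points were called by limma and the dashed line is the median of all tested genes. The p160 genes lie below 0 with R1881, and NCOA1 and NCOA2 lie above 0 when MEL-6 is added to it. KDM1A and MED1 lie furthest below 0 in R1881+MEL-6 against vehicle.

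Ratios of 2 genes within a library do not depend on how the library was scaled, and they were used to look at the balance between coregulators. Of the 9 ratios compared, the groups did not overlap in 7 for R1881 against vehicle, 6 for R1881+MEL-6 against R1881 and 3 for R1881+MEL-6 against vehicle. Among single genes the groups did not overlap in 57.9%, 59.8% and 46.5% of all those tested in these comparisons. The share among ratios of other gene pairs was not counted. Most of the 9 ratios use the same 3 p160 genes, so they are not separate results. The exact permutation test of 3 libraries against 3 cannot give a p below 0.1, so none of the 27 comparisons could pass a threshold of 0.05 and the ratios are given as levels.

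NCOR1 relative to the sum of the p160 genes, a corepressor set against its opposing coactivators, was 0.565, 0.627 and 0.654 in R1881+MEL-6, 0.835, 0.794 and 0.829 in R1881, and 0.588, 0.563 and 0.597 in vehicle. The R1881 libraries were above all 6 others, while R1881+MEL-6 and vehicle overlapped. On the log2 scale the ratio was 0.49 higher in R1881 than in vehicle and 0.42 lower in R1881+MEL-6 than in R1881 (two-sided exact permutation p = 0.1 each, the smallest possible). NCOR1 was higher, and the p160 sum lower, in each R1881 library than in each vehicle library.

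EP300 was more abundant per length than CREBBP in every library. The ratio was 1.81, 1.82 and 1.84 in R1881+MEL-6, 2.13, 2.07 and 2.05 in R1881, and 1.84, 1.74 and 1.64 in vehicle. Although neither gene was called, the R1881 libraries were above all others in this ratio (log2 difference 0.26 from vehicle, two-sided exact permutation p = 0.1). Within the p160 family NCOA2 made up 46.0% to 47.5% of the sum in R1881+MEL-6, 44.9% to 45.9% in R1881 and 47.4% to 49.7% in vehicle. NCOA1 made up 37.1% to 39.7%, 37.5% to 38.6% and 33.9% to 36.1% in the same groups, and NCOA3 14.2% to 15.9%, 16.4% to 16.6% and 15.9% to 16.4%. The ratio of NCOA3 to NCOA2 was 0.310, 0.314 and 0.338 in R1881+MEL-6 and 0.359, 0.368 and 0.361 in R1881, without overlap. MED1 relative to the median of the 31 other measured Mediator subunits and kinase module genes was 1.41, 1.52 and 1.40 in R1881+MEL-6, 1.41, 1.38 and 1.56 in R1881, and 1.55, 1.50 and 1.51 in vehicle, and neither group with R1881 was separated from vehicle.

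**Figure D3:**
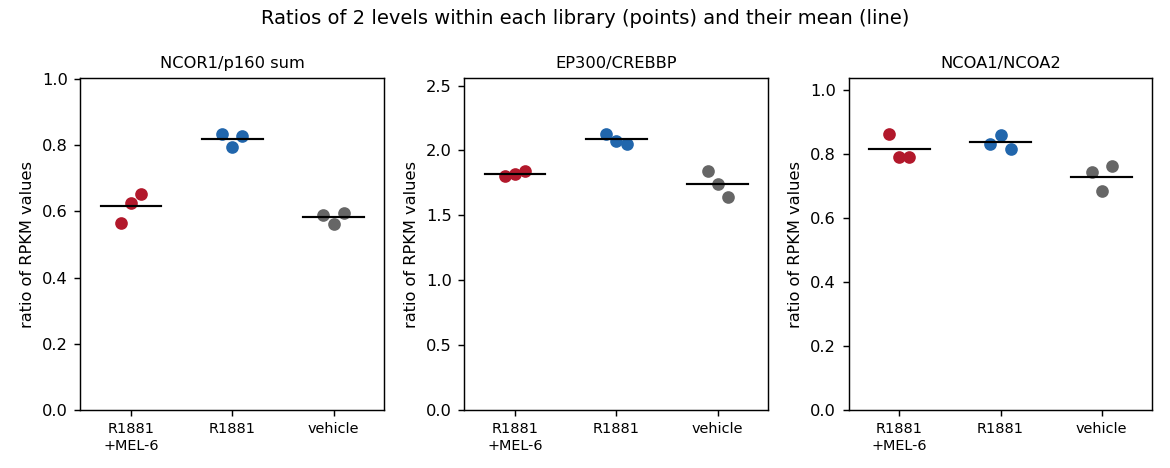
Ratios of RPKM values within each library (points, with the group mean as a line) for 3 pairs of coregulators, each axis starting at 0. NCOR1 to the p160 sum and EP300 to CREBBP were higher in all 3 R1881 libraries than in the 6 others, and NCOA1 to NCOA2 was lowest in vehicle.

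Other coregulators were taken from 5 lists, which held 163 genes, 154 of them measured well enough to test. With R1881 against vehicle 26 were called higher and 42 lower, 44.2% of those tested beside 45.8% of all genes. With median-of-ratios scaling the split was 38 higher and 19 lower, beside 2778 higher and 2535 lower of all genes. With MEL-6 against R1881 48 were higher and 37 lower, 55.2% beside 52%. With that scaling they were 33 higher and 54 lower, beside 3265 higher and 3785 lower of all genes. The split between higher and lower calls thus turned with median-of-ratios scaling. It did not turn with upper-quartile scaling (29 higher and 33 lower with R1881, 45 higher and 39 lower with MEL-6). Of all genes, that scaling called 2198 higher and 3399 lower with R1881, and 3946 higher and 2952 lower with MEL-6. The genes named below by the largest changes, except BCL7C and MED31, kept their calls under each of the alternatives run.

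Among 40 other coactivators and receptor-bound regulators, 13 were higher and 5 lower with R1881 against vehicle, 45% called beside 45.8% of all genes, where 14.5% of all genes were called higher and 31.3% lower (median log2 change 0.0036, beside -0.12 for all genes). PIAS1, a SUMO ligase that binds steroid receptors, was at 33.9 ± 1.06 RPKM in R1881 and 13.6 ± 1.01 RPKM in vehicle (SD, n = 3 each). This log2 change of 1.28 ± 0.067 was larger than that of any of the 9 genes above. TRIM24, a chromatin reader and receptor coactivator, rose by 0.58 ± 0.054 and ZMIZ1, a PIAS-like coactivator, by 0.64 ± 0.095. NCOA7, a further receptor-binding coactivator, was at 3.58 ± 0.490 RPKM in R1881 and 9.03 ± 0.369 RPKM in vehicle (log2 change -1.23 ± 0.091). With MEL-6 against R1881 9 of the 40 were higher and 9 lower, 45% called beside 52% of all genes (median -0.00075, beside 0.075 for all genes). NCOA7 was at 9.49 ± 0.422 RPKM and PIAS1 at 14.3 ± 0.878 RPKM in R1881+MEL-6, log2 changes of 1.30 ± 0.091 and -1.22 ± 0.067. PSMC3IP fell to 7.54 ± 1.68 RPKM in R1881+MEL-6, against 15.9 ± 1.30 RPKM in R1881, and CALCOCO1, a coiled-coil coactivator, rose by 0.68 ± 0.078. The limma adjusted p of these genes was at most 0.000325.

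Of 35 genes of corepressor complexes, 6 were higher and 13 lower with R1881 against vehicle, 54.3% called beside 45.8% of all genes (median log2 change -0.11, beside -0.12 for all genes). CTBP1, a corepressor that recruits deacetylases and KDM1A, was at 44.1 ± 1.66 RPKM in R1881 and 87.4 ± 4.39 RPKM in vehicle (log2 change -0.98 ± 0.058). The Groucho-family corepressor TLE3 (-0.92 ± 0.073) and BCOR (-0.46 ± 0.058) fell as well, and SAP30, a subunit of the SIN3 complex, rose (0.71 ± 0.14). With MEL-6 against R1881 12 of the 35 were higher and 8 lower, 57.1% called beside 52% of all genes (median 0.036, beside 0.075). CTBP1 was at 86.1 ± 4.81 RPKM in R1881+MEL-6 (log2 change 0.96 ± 0.058). TLE1 and TLE2 rose by 0.69 ± 0.090 and 0.68 ± 0.069. NRIP1 (RIP140), which represses hormone-bound receptors, fell to 12.1 ± 1.09 RPKM in R1881+MEL-6, against 23.2 ± 0.849 RPKM in R1881. The limma adjusted p of these genes was at most 0.00214.

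Among the 25 KDM1A partners and histone demethylases, 4 were higher and 10 lower with R1881 against vehicle, 56% called beside 45.8% of all genes (median log2 change -0.15, beside -0.12). The demethylase PHF8 rose by 1.15 ± 0.056 and KDM4B, a histone H3 lysine demethylase, by 0.77 ± 0.11. KDM6A (UTX), which acts on another lysine of histone H3, fell to 44.6 ± 0.656 RPKM in R1881, against 82.5 ± 1.72 RPKM in vehicle (log2 change -0.88 ± 0.047), and KDM4D fell by 0.79 on the log2 scale, to 0.786 RPKM in R1881, against 1.71 RPKM in vehicle. With MEL-6 against R1881 12 of the 25 were higher and 6 lower, 72% called beside 52% of all genes (median 0.11, beside 0.075 for all genes). HMG20B (BRAF35), a subunit found with KDM1A in the CoREST complex, was at 81.9 ± 2.67 RPKM in R1881+MEL-6 and 159 ± 10.1 RPKM in R1881 (log2 change -0.95 ± 0.058). PHF8 fell (-1.08 ± 0.056), and KDM6B (0.71 ± 0.061) and the low RCOR2 (0.68 ± 0.19) rose. The limma adjusted p of these genes was at most 0.0116.

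Of 31 other Mediator and kinase module genes, 1 was higher and 4 lower with R1881 against vehicle, 16.1% beside 45.8% of all genes (median log2 change -0.068). CDK8, the kinase of the module that binds Mediator reversibly, was at 6.63 ± 0.386 RPKM in R1881 and 14.3 ± 1.17 RPKM in vehicle (log2 change -1.05 ± 0.073). The other calls named by the rule were MED14, the central scaffold (-0.50 ± 0.078), MED29 (-0.26 ± 0.052) and MED8 (0.33 ± 0.070). With MEL-6 against R1881 6 of the 31 were higher and 7 lower, 41.9% beside 52% of all genes (median -0.067, beside 0.075). CDK8 (0.62 ± 0.073), its paralog CDK19 (0.37 ± 0.057) and MED13L (0.40 ± 0.074) rose, and MED31 fell (-0.36 ± 0.11), a call lost without R1881 replicate 2 or R1881+MEL-6 replicate 2 (limma adjusted p = 0.0807 and 0.0805). The first 3 belong to the kinase module, and of its other tested genes, looked up after these values were seen and not run under the alternatives, its cyclin CCNC was called lower (-0.25 ± 0.090, limma adjusted p = 0.0364), while MED12 (0.14 ± 0.11) and MED13 (0.040 ± 0.055) were not called (limma adjusted p = 0.323 and 0.568). Of 23 subunits of the SWI/SNF chromatin remodellers 2 were higher and 10 lower with R1881 against vehicle, 52.2% called beside 45.8% of all genes (median log2 change -0.17, beside -0.12). Among those lower were SMARCD3 (-0.70 ± 0.12), DPF1 (-0.77 ± 0.15), ARID1B (-0.39 ± 0.083) and BCL7C (-0.30 ± 0.099, a call lost under 8 alternatives, with limma adjusted p of 0.115, 0.0675, 0.0729 and 0.122 without vehicle replicate 1, vehicle replicate 3, R1881 replicate 1 or R1881 replicate 2). With MEL-6 against R1881 9 of the 23 were higher and 7 lower, 69.6% called beside 52% of all genes (median 0.13, beside 0.075). PBRM1 was at 47.9 ± 2.81 RPKM in R1881+MEL-6 and 27.1 ± 0.838 RPKM in R1881, SMARCD3 rose by 0.98 ± 0.12 and BCL7C by 0.45 ± 0.099, and SMARCC1 fell (-0.59 ± 0.046). Apart from CCNC, MED12 and MED13, the highest limma adjusted p among these Mediator and SWI/SNF genes, over all libraries, was 0.0324.

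**Figure D4:**
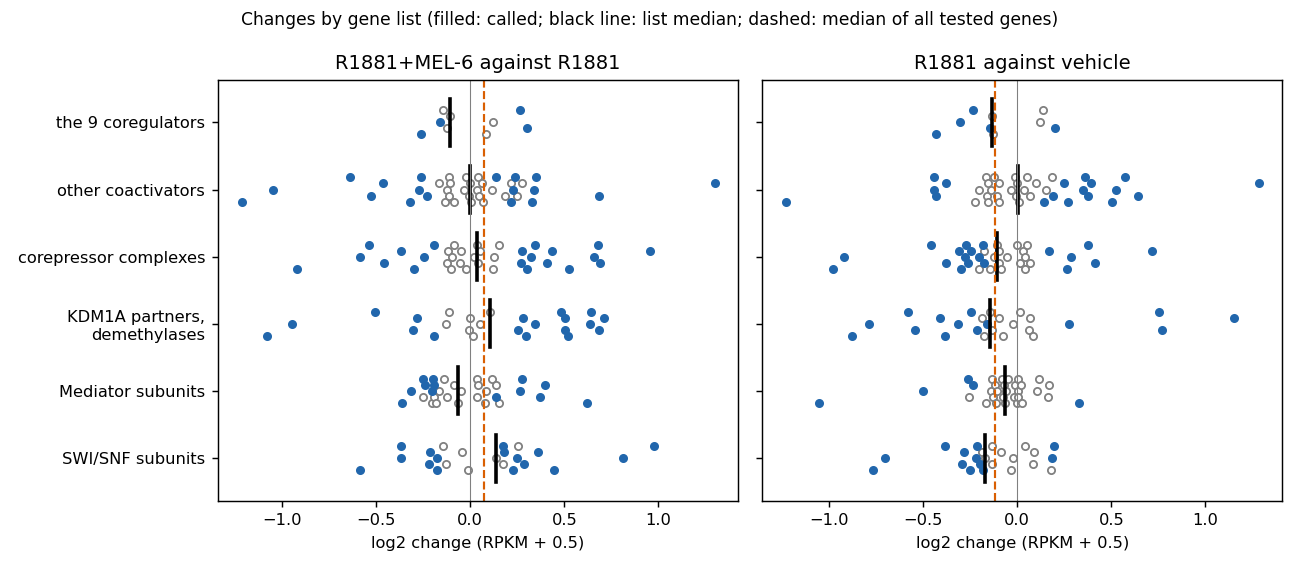
Log2 changes, on the log2(RPKM + 0.5) scale, of the 9 coregulators and of 5 lists of other coregulators with MEL-6 against R1881 and with R1881 against vehicle; filled points were called by limma, black lines are list medians and the dashed line is the median of all tested genes. The 9 coregulators lie no further than 0.43 from 0 in both panels, and each list holds genes that moved further than any of them.

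The genes most alike in pattern were sought by Pearson correlation of log2(RPKM + 0.5) over the 9 libraries among genes with a mean of at least 5 RPKM. The 9 libraries form 3 groups and share their depth with each gene, so these values describe mainly the differences between groups. NCOA1 was closest to DDX42 (r = 0.98) and PTPN3 (0.98), NCOA2 to ASB13 (0.99) and SESN3 (0.99), and NCOA3 to KANK2 (0.99) and VARS2 (0.99). NCOA4 was closest to VPS13A (0.99) and NMD3 (0.97), NCOR1 to LOC100505582 (0.97) and PDPK1 (0.97), and EP300 to MYH9 (0.95) and VPS13D (0.94). CREBBP was closest to EP400 (0.96) and MLLT1 (0.95). KDM1A was closest to the cohesin gene SMC1A (0.99) and the proliferation marker MKI67 (0.99), and MED1 to CKAP2L (0.99) and CDCA3 (0.99).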

How the data were processed

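Polyadenylated RNA of 9 LNCaP libraries was measured, and the titles gave group and replicate number. Per the labels' protocols the kits were RNeasy Mini and TruSeq RNA, and the submitters' processing notes name CASAVA 1.8 and GRCh37. The deposited values were RPKM made by the authors, 1 column per library, although the sheet is named for counts; gene models, read filters and strand are not given in the sources used here. The authors' deposited columns of comparisons marked none of the 9 genes as significant, by a rule not stated, where they marked 552 entries for vehicle against R1881 and 569 for MEL-6 against R1881. Depth was estimated from the steps of low values with GENCODE exon lengths: in 27.5% of 994 low genes every value was a whole multiple of 1 read (relative tolerance 0.0005).

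Tests used limma 3.58.1 in R 4.3.3 (group means of all 9 libraries, empirical Bayes with an intensity trend, two-sided) on log2(RPKM + 0.5), which understates changes of low genes. The 13295 genes that reached 0.5 RPKM in 3 or more libraries were tested, and p-values were adjusted over these by the Benjamini-Hochberg method in each comparison. The fit was tested on simulated data for R1881 against vehicle, with few genes shifted and no shift of the median. That test cannot show how the scale affects the calls. Ratios were tested by exact permutation. The p-values measure the spread between these libraries, which may be technical. The labels give no batch. Entries of TIMM23B and MIR3115 overlap NCOA4 and KDM1A, and GENCODE lists pseudogenes of NCOA4 and NCOR1, so reads may be shared. The genes, the lists, the motifs and the tests were chosen with earlier results of these data known. Of each list, up to 4 called genes with the largest changes in each of the first 2 comparisons were named. Some planned results are not reported here. Alternatives were other pseudocounts, filters, scalings, fits and leaving out each library.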

Additional observations from a re-analysis of the deposited data

How the results depend on the processing

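Over the 18 alternatives, 4 to 7 of the 9 coregulators were called for R1881 against vehicle, 3 to 6 for R1881+MEL-6 against R1881 and 2 to 3 for R1881+MEL-6 against vehicle. In the main fit 45.8%, 52% and 38% of all tested genes were called in these comparisons. With median-of-ratios scaling, of 13296 genes, 2778 were higher and 2535 lower, 3265 higher and 3785 lower, and 2459 higher and 2503 lower. The share of all genes is not given here for the other settings, the replicate block among them. For single coregulators, 437 of the alternative values kept direction and side of the threshold, 27 lost a call, 11 gained one and 11 turned sign. The turns were in differences near 0 that had not been called. For R1881+MEL-6 against R1881 CREBBP was at -0.015 with median-of-ratios scaling. For R1881+MEL-6 against vehicle NCOR1 was at 0.017 with upper-quartile and 0.014 with median-of-ratios scaling. Leaving out 1 library gave ranges, for R1881+MEL-6 against vehicle, of -0.036 to 0.053 for NCOR1, -0.046 to 0.11 for EP300, -0.088 to 0.0032 for CREBBP and -0.00062 to 0.062 for NCOA1. In ratios without overlap, that range was 3 to 5 for R1881+MEL-6 against vehicle. KDM1A with R1881 lost its call under 9 alternatives (adjusted p up to 0.737), 5 of which left out a library (up to 0.131). The cause was not tested. Same-numbered replicates did not deviate together (r -0.197 to 0.198), so numbers were not taken as pairs. With a replicate block 4, 4 and 2 coregulators were called in the 3 comparisons, without KDM1A in the first (adjusted p = 0.0705) and NCOA3 in the third (0.0758). Depth limits NCOA3 most, with counting errors of 3.42% to 5.72% per library, and intervals cover these libraries only.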
